A study of Mus musculus with 4 samples.

Results

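The genes described here encode the kainate receptors Grik1, Grik2, Grik3, Grik4 and Grik5 and the metabotropic glutamate receptors Grm3, Grm5, Grm7 and Grm8, 9 of the 33696 genes in the count matrices. They were chosen by name, as members of these receptor families, and all 9 were found in each matrix. Nuclei came from mouse brains 21 days after photothrombotic (PT) injury, in which a light-activated dye clots the vessels of a patch of cortex. One library, labelled control (genotype WT), and one labelled Cxcl12-cKO (Col1a2(creER); Cxcl12(flox)), were each pooled from 1 male and 1 female mouse, and the lesion and the parenchyma around it were tagged and sequenced together. The Col1a2 driver acts in fibroblasts, so neither neurons nor glia were the cells targeted for deletion. Every mouse was injured, and no age or uninjured tissue was available in the labels used here.

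Kainate receptors are glutamate-gated cation channels. Grik1, Grik2 and Grik3 encode subunits that can form channels by themselves, whereas Grik4 and Grik5 encode high-affinity subunits that must join one of them. Metabotropic glutamate receptors signal through G proteins: Grm5 belongs to group I, which acts through Gq and phospholipase C, Grm3 to group II and Grm7 and Grm8 to group III, both of which act through Gi and often sit on presynaptic terminals. In the cortex Grik1 is known as an interneuron gene, Grm3 as the metabotropic receptor of mature astrocytes and Grm5 as a postsynaptic receptor that is abundant in the striatum.

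After filtering, 8095 and 7933 lesional nuclei and 2877 and 2838 parenchymal nuclei remained in the libraries labelled control and Cxcl12-cKO. All paired values below follow that order. The median depth was 2962 and 2975 unique molecular identifiers (UMIs) per nucleus in the lesion and 15915 and 16648 in the parenchyma. Between 9.75% and 14.3% of nuclei held UMIs of both sexes. Cxcl12, the gene targeted in fibroblasts, stood at 106 and 217 CPM (UMIs scaled to a common total) in lesional fibroblast-like nuclei, which goes against the labels. Counts from the 3′ end may lie outside the floxed part, so this level does not check the deletion itself, and the libraries are called by their labels throughout. Nuclei with the markers of Drd1 and Drd2 striatal projection neurons were found although subcortical tissue was removed at dissection according to the study's methods. Neurons and glia were clustered with all glutamate receptor genes left out, and a subcluster that failed the naming rule is called by its leading genes. Levels are CPM of the summed UMIs of a group. They are compared between groups of nuclei for 1 gene and never between genes, since 3′ counts are not per length.

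Grik1 was highest in interneurons. Parenchymal Sst interneuron-like nuclei held 2447 and 2176 CPM and Lamp5 interneuron-like nuclei 2119 and 2347 CPM, and these top groups overlapped. Near-projecting neuron-like nuclei followed with 1178 and 1332 CPM. They overlapped with the next groups, namely an unnamed excitatory subcluster led by Htr1d and Slc38a3 (861 and 1395 CPM), Pvalb interneuron-like nuclei (1110 and 877 CPM) and Vip interneuron-like nuclei (751 and 932 CPM). Most excitatory neurons held little of it: upper-layer nuclei had 10.8 and 17.2 CPM and layer 6 corticothalamic nuclei 8.67 and 13.1 CPM. The highest level was 48.3 times the median of the 21 neuron groups, the highest such ratio of the 9 receptors. After thinning every nucleus to 1000 UMIs, 77.4% and 75.2% of parenchymal Sst interneuron-like nuclei still held a Grik1 UMI. The share was 1.05% and 1.34% in upper-layer nuclei and 3.14% and 4.58% in lesional fibroblast-like nuclei. The latter are given here and below as a guide to background, and that they lack the receptors was not tested.

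**Figure D1:**
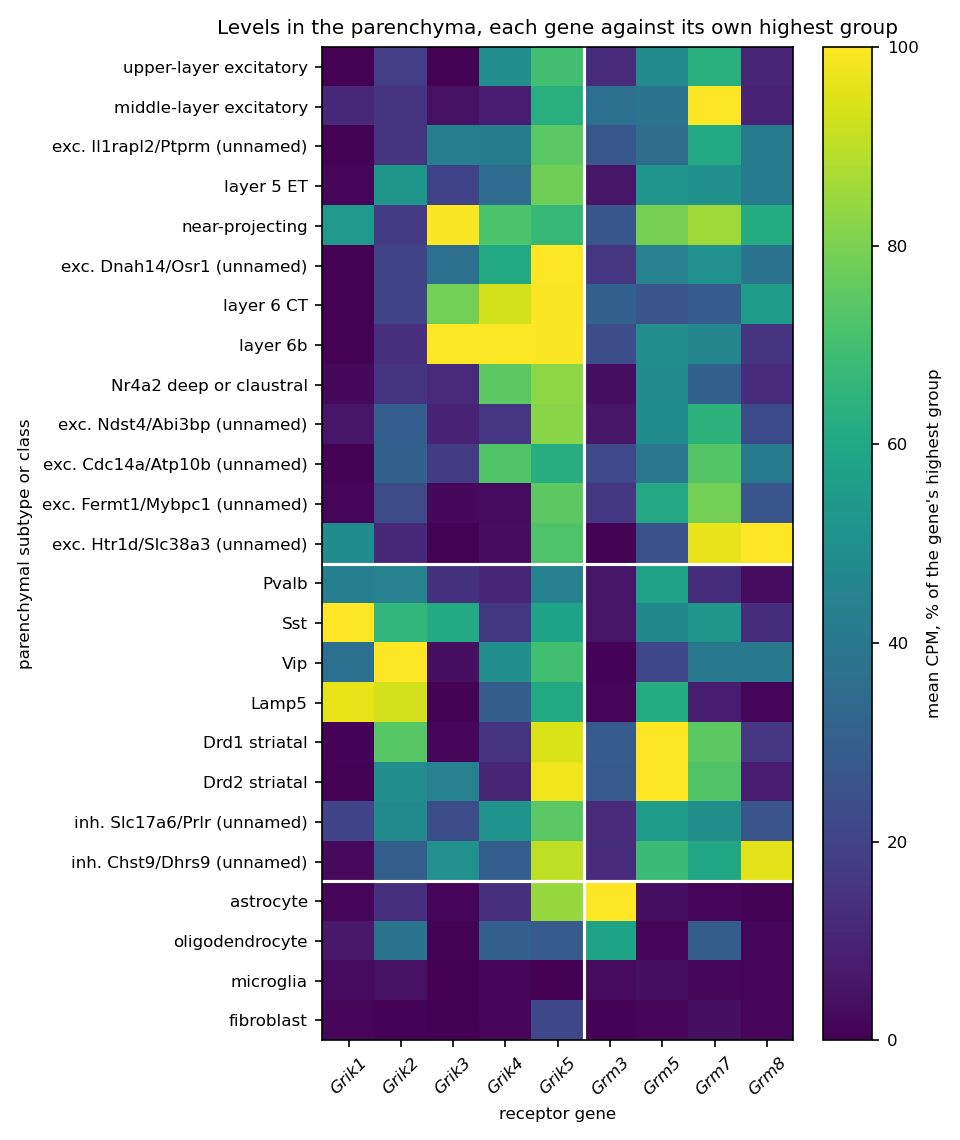
Level of each receptor gene (columns) in 25 parenchymal subtypes and classes (rows), as the mean CPM of the 2 libraries in percent of that gene's own highest group. White lines part excitatory, inhibitory and non-neuronal groups, and kainate from metabotropic receptors. Grik1 peaks in Sst and Lamp5 interneuron-like nuclei, Grm3 in astrocyte-like nuclei, and Grik5 is near its top value in many neuron groups.

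Grik2, a channel-forming subunit, was led by Vip and Lamp5 interneuron-like nuclei, whereas Pvalb interneuron-like nuclei held 1702 and 1591 CPM. Vip interneuron-like nuclei had 3546 and 3889 CPM and Lamp5 nuclei 3238 and 3676 CPM, which overlapped. Drd1 striatal projection neuron-like nuclei (2822 and 2679 CPM), Sst nuclei (2311 and 2621 CPM) and layer 5 extratelencephalic nuclei (1998 and 1924 CPM) came next, each apart from the group after it. Other excitatory groups sat lower, with 656 and 713 CPM in upper-layer and 557 and 558 CPM in middle-layer nuclei. The lowest neuron group was the Htr1d/Slc38a3 subcluster at 372 and 447 CPM, still apart from microglia-like nuclei (225 and 114 CPM) and fibroblast-like nuclei (44.7 and 32.8 CPM). Of the glia, parenchymal oligodendrocyte-like nuclei held 1049 and 1819 CPM.

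Grik3 marked deep layers. Layer 6b neuron-like nuclei had 584 and 611 CPM and near-projecting nuclei 608 and 581 CPM, which did not differ beyond their spread over the libraries. Layer 6 corticothalamic nuclei (496 and 449 CPM) and Sst interneuron-like nuclei (325 and 404 CPM) followed, each apart from its neighbours. The 2 kinds of striatal-like nucleus lay far from each other for this gene, with 282 and 247 CPM in Drd2 nuclei and 10.6 and 9.39 CPM in Drd1 nuclei. The 398 and 413 upper-layer nuclei gave 15 and 34 UMIs in all, or 1.90 and 4.11 CPM. Lamp5 interneuron-like nuclei gave 0 and 3 UMIs. A count of 0 in the library labelled control allows up to 5.92 CPM of Grik3, and in microglia-like nuclei, which are few, 0 UMIs allow up to 75.1 and 42.7 CPM.

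Grik4 peaked in the same deep layers, with 351 and 410 CPM in layer 6b nuclei and 374 and 334 CPM in layer 6 corticothalamic nuclei, which overlapped. Upper-layer nuclei, which hold almost no Grik3, had 201 and 172 CPM of Grik4, close to Vip interneuron-like nuclei at 205 and 170 CPM. Middle-layer nuclei were far lower, at 28.4 and 30.5 CPM, and formed a group apart. Grik5 was the most even of the receptors. Its highest group, an unnamed excitatory subcluster led by Dnah14 and Osr1, held 157 and 160 CPM, which is 1.34 times the median neuron group. Pvalb interneuron-like nuclei were the lowest neurons, at 72.8 and 67.0 CPM, and apart from their neighbours. Of the 24 steps between neighbouring groups, 4 were free of overlap for Grik5, against 6 for Grik1 and between 9 and 12 for the other receptors. Such steps were not counted over all genes, so whether these counts are unusual is not known.

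**Figure D2:**
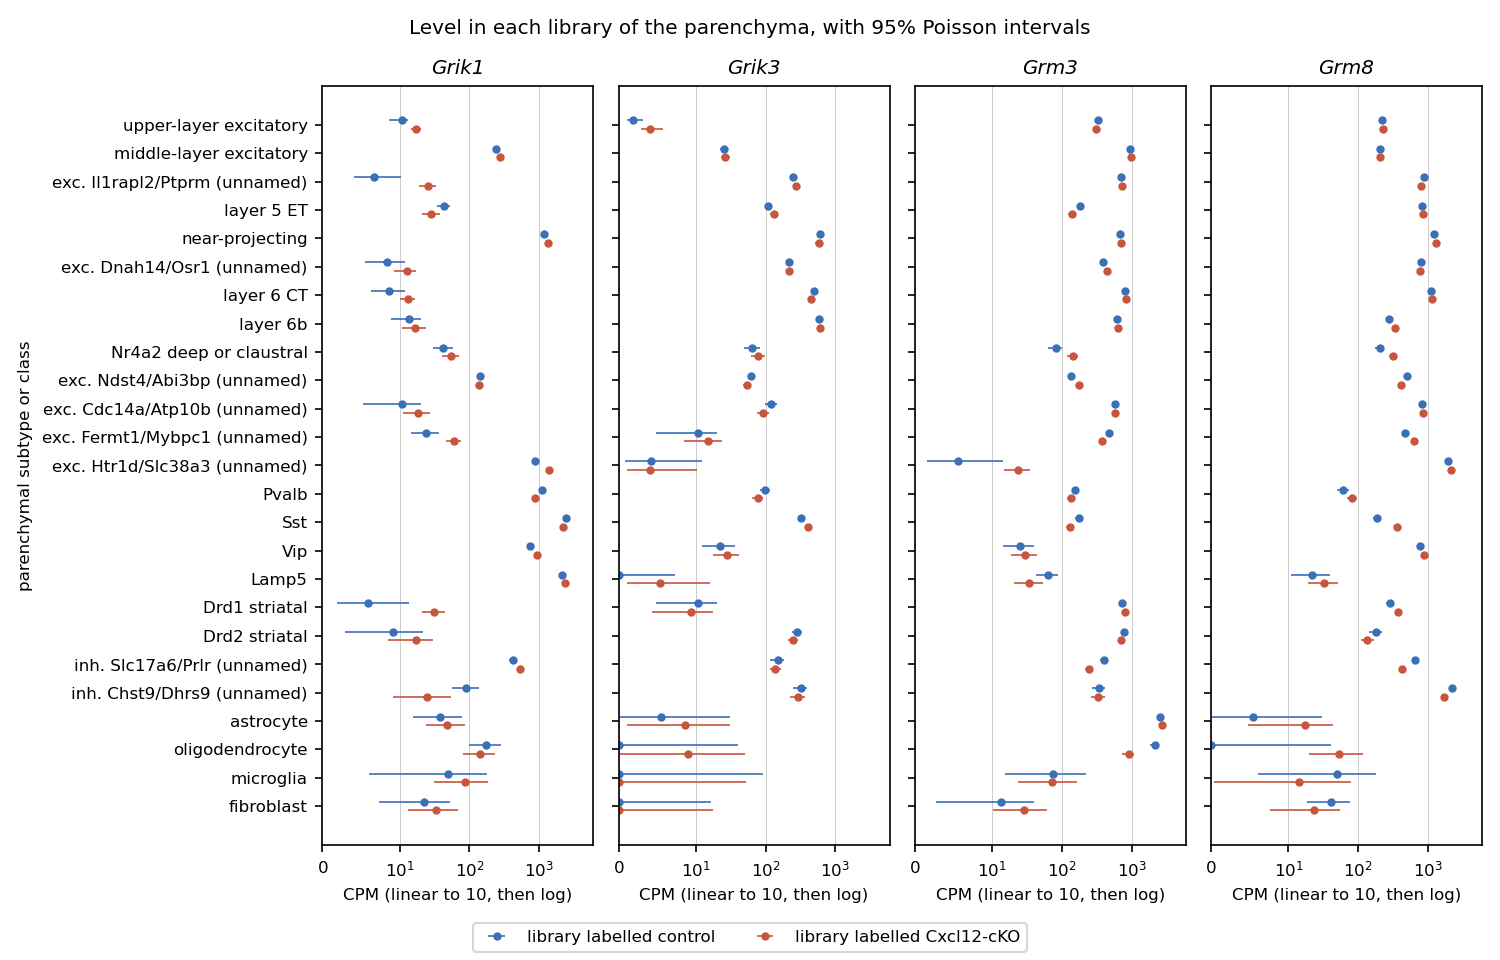
CPM of Grik1, Grik3, Grm3 and Grm8 in each parenchymal subtype or class, with 95% exact Poisson intervals, on an axis that is linear up to 10 CPM and logarithmic above. Blue points are the library labelled control and red points the library labelled Cxcl12-cKO, which lie close together in most abundant groups and part where nuclei are few.

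Grm3 was the receptor with its highest level outside neurons. Parenchymal astrocyte-like nuclei held 2549 and 2726 CPM, apart from every other group. Oligodendrocyte-like nuclei had 2152 and 905 CPM, and the summed level of 6 astrocyte markers in the same nuclei was 2579 and 645 CPM, so the libraries differed in both, and the part of the markers in the value was not tested. Among neurons, middle-layer (957 and 973 CPM) and layer 6 corticothalamic nuclei (808 and 837 CPM) led, each apart from the next. Drd1 and Drd2 striatal-like nuclei, at 719 and 799 CPM and at 767 and 716 CPM, overlapped. Upper-layer nuclei had 331 and 311 CPM. Vip interneuron-like nuclei had 24.9 and 29.2 CPM and Lamp5 nuclei 63.1 and 34.2 CPM. Thinned to 1000 UMIs, 74.1% and 84.2% of parenchymal astrocyte-like nuclei held a Grm3 UMI (86.5% and 95.6% before thinning). Lesional fibroblast-like nuclei gave 1.78% and 2.14% (4.96% and 6.24% before).

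Grm5 was highest in Drd2 (3824 and 4126 CPM) and Drd1 (3949 and 3975 CPM) striatal-like nuclei, which overlapped with each other. In the cortex near-projecting nuclei came first, at 3102 and 3204 CPM, apart from the groups on either side. Upper-layer nuclei held 1889 and 1936 CPM, and the lowest neurons were Vip interneuron-like nuclei at 779 and 952 CPM. All glia were lower than all neurons, with 131 and 169 CPM in parenchymal astrocyte-like nuclei.

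The group III receptors shared their lowest interneurons and several of their highest groups, but differed in middle-layer and layer 6 corticothalamic nuclei. Grm7 was highest in middle-layer nuclei (3952 and 4025 CPM), then in the Htr1d/Slc38a3 subcluster (3807 and 3918 CPM) and near-projecting nuclei (3413 and 3418 CPM), each apart from the next. Grm8 was led by the Htr1d/Slc38a3 subcluster (1945 and 2163 CPM) and an unnamed inhibitory subcluster led by Chst9 and Dhrs9 (2234 and 1693 CPM), which overlapped. For Grm8, middle-layer nuclei held 206 and 204 CPM, near the low end of the excitatory groups. Layer 6 corticothalamic nuclei were in the opposite position, at 1133 and 1176 CPM of Grm7, the low end of excitatory groups, and at 1123 and 1139 CPM of Grm8, near the top. Pvalb and Lamp5 interneuron-like nuclei were the lowest neurons for both genes. Pvalb nuclei held 574 and 482 CPM of Grm7 and 60.7 and 81.9 CPM of Grm8. Lamp5 nuclei held 282 and 313 CPM of Grm7 and 21.7 and 32.4 CPM of Grm8.

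Across 55 subtypes and classes of the lesion and the parenchyma, with the libraries summed, the genes most like each receptor were found by Pearson's correlation of log2(CPM + 1) over 10300 genes. These are descriptions: the points share libraries and differ in depth, and groups of neurons stand against groups of glia in each. Grik1 was most like Nxph1 (0.75), the secreted ligand of neurexins, and Alk (0.72). Grik2 was most like Ctnna2 (0.87) and Ank3 (0.86), Grik3 like Cdh18 (0.75) and Dscam (0.73), Grik4 like Tmem132b (0.78), and Grik5 like Gm9801 (0.92) and Astn1 (0.91). Grm3 was most like Spry2 (0.70) and Wdr17 (0.70), Grm5 like Myt1l (0.95) and Sptbn4 (0.95), Grm7 like Rps6kl1 (0.88) and Scn2a (0.87), and Grm8 like Celf4 (0.80) and Chsy3 (0.79). Between the receptors themselves the highest value was 0.77, for Grm5 with Grm7, and the lowest was -0.24, for Grik1 with Grm3.

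The study's genotype comparison asked what changes when fibroblasts lose Cxcl12. In parenchymal excitatory-neuron-like nuclei (2202 and 2084) the receptors differed little between the libraries. With 1 library per genotype no test is possible, so values are given with exact intervals that cover counting error only, and a gene is counted past 1.5-fold where it also has at least 20 UMIs. Of 9 receptors 0 were past 1.5-fold, against 7.55% of 19218 genes (4.55% higher in the library labelled Cxcl12-cKO and the rest lower). Grik1 had the largest ratio, at 107 and 134 CPM, a log2 ratio of 0.32 (0.26 to 0.38). Ratios are taken over the library labelled control. It was 0.37 in nuclei assigned to the female mice and 0.25 in those of the male mice. The Htr1d/Slc38a3 subcluster made up 1.73% and 2.35% of these nuclei and held 14.3% and 26.4% of the Grik1 UMIs; the part of this mix in the ratio was not tested. The others ranged from -0.13 for Grik3 to 0.06 for Grik2, Grm5 and Grm7, and the median over the 9 was 0.01, beside -0.01 over all genes.

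Parenchymal inhibitory-neuron-like nuclei (489 and 539) gave 0 of 9 past 1.5-fold, against 8.64% of 15121 genes (4.58% higher and 4.06% lower). Grm7 had the largest ratio here, at 1563 and 1781 CPM (log2 0.19), and Grm3 the lowest, at 288 and 260 CPM (log2 -0.15). Grik1 stood at 989 and 968 CPM, a log2 ratio of -0.03. The list of related genes, which holds the other metabotropic receptors, the kainate receptor auxiliary subunits Neto1 and Neto2, and scaffold and signalling partners such as Homer1, Shank1, Gnaq and Plcb1, had 0 of 20 genes past 1.5-fold in excitatory and 0 of 19 in inhibitory nuclei. In excitatory nuclei its highest log2 ratios included those of Plcb4 (0.11) and Neto1 (0.04). Its lowest were those of Homer3 (-0.43), Grm2 (-0.26) and Elfn1 (-0.23). Homer3 rested on 43 and 31 UMIs (interval -1.15 to 0.26), with -0.94 in female and 0.22 in male nuclei. In inhibitory nuclei the highest included Elfn1 (0.27, with -0.38 in female and 1.12 in male nuclei) and Gnaq (0.10). The lowest were Grm2 (-0.25), Prkca (-0.20) and Itpr1 (-0.19), of which Grm2 rested on 13 and 13 UMIs (interval -1.47 to 0.98).

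Lesional astrocyte-like nuclei (424 and 452) differed more. The receptors past 1.5-fold were 3 of 9, all lower in the library labelled Cxcl12-cKO, where 15.6% of 11465 genes were past it in either direction, 7.03% higher and 8.55% lower. Grm3 stood at 433 and 239 CPM (682 and 482 UMIs), a log2 ratio of -0.86 (-1.03 to -0.69), and was -0.64 in the nuclei of either sex. Grm8 stood at 59.6 and 31.2 CPM (94 and 63 UMIs), log2 -0.93 (-1.42 to -0.46), but in nuclei of the female mice it was -0.19, short of 1.5-fold, and in those of the male mice -1.22. Grik3 stood at 53.3 and 20.3 CPM (84 and 41 UMIs), log2 -1.38 (-1.97 to -0.84), with -0.98 and -1.85 by sex. With the broader astrocyte-like class of the first clustering, which also holds precursor-like and mixed subclusters, the Grik3 ratio was 0.02, so it turns on the choice of nuclei. Grik2, at 1482 and 1071 CPM, had a log2 ratio of -0.47 (-0.55 to -0.38), below 1.5-fold. Grm5 ran the other way, at 385 and 465 CPM (log2 0.27, 0.12 to 0.42), and the median over the 9 was -0.22. In the same nuclei fibroblast markers summed to 301 and 196 CPM and astrocyte markers to 6156 and 7058 CPM, and their part in the ratios was not tested. Of the related genes 2 of 16 were higher, Homer2 (8.88 and 22.3 CPM, log2 1.29) and Shank2 (80.0 and 129 CPM, log2 0.68), and 1 was lower, Neto1 (22.8 and 8.41 CPM, log2 -1.42). Each of these fell short of 1.5-fold in the nuclei of 1 sex: the log2 ratio was 0.42 in female nuclei for Homer2, 0.32 in male nuclei for Shank2 and -0.33 in female nuclei for Neto1. Shank3 (0.47) was the next highest, and Shank1 (-0.36) and Neto2 (-0.34) the next lowest, none of them past 1.5-fold.

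**Figure D3:**
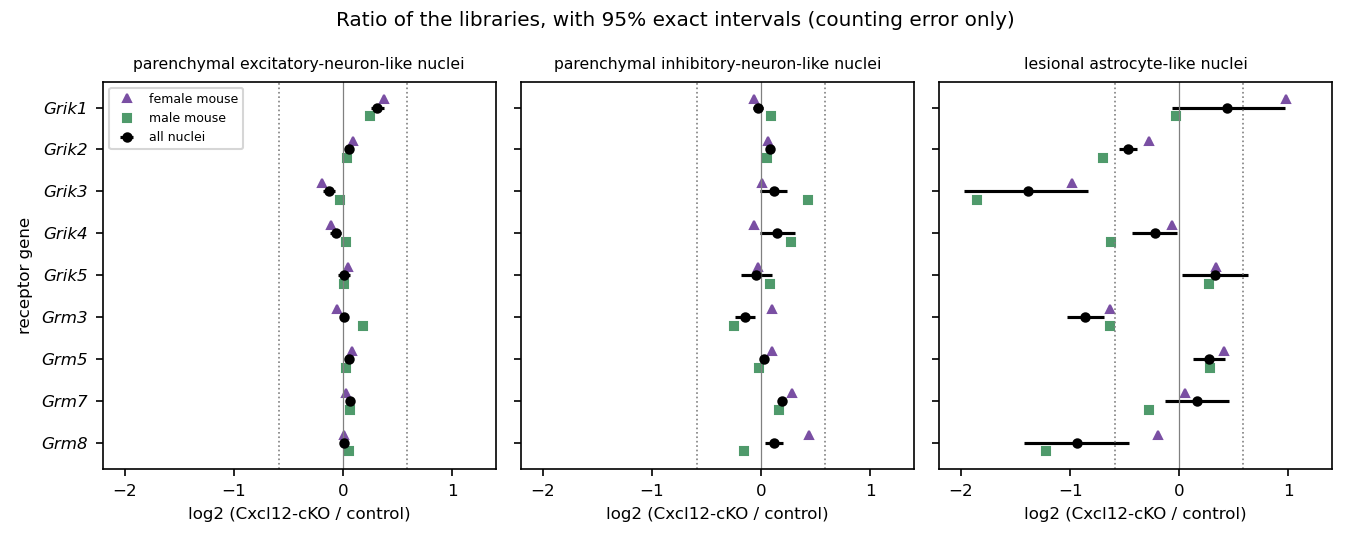
Log2 ratio of the library labelled Cxcl12-cKO to the library labelled control for the 9 receptors in parenchymal excitatory, parenchymal inhibitory and lesional astrocyte-like nuclei, with 95% exact intervals. Points show all nuclei and the nuclei assigned to the female and to the male mice; in the neuron classes the values of all nuclei lie between -0.15 and 0.32, and in astrocyte-like nuclei Grik3, Grm3 and Grm8 lie at -0.86 or below.

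Lesion and parenchyma of a library come from the same mice, so the regions were compared across both libraries by edgeR's quasi-likelihood test on summed UMIs, with the library as a block and p-values adjusted over all genes tested by Benjamini-Hochberg. There is 1 residual degree of freedom, and edgeR moderates the variance of each gene across all genes. The p-values and SEs therefore rest in part on the spread of other genes between 2 pooled libraries. They do not measure the gene's own spread alone. In excitatory-neuron-like nuclei (505 and 236 in the lesion) Grik2, Grik3, Grik4, Grm3 and Grm8 were higher in the lesion and Grik1 was lower, 6 of 9 receptors in all. In the same fit 30.0% of 17837 genes were called, 13.7% higher and 16.3% lower. The median log2 difference over the receptors was 0.24, beside -0.04 over all genes.

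Grik4 rose from 172 and 164 CPM in the parenchyma to 217 and 260 CPM in the lesion, a log2 difference of 0.60 ± 0.09 (SE; edgeR adjusted p = 4.6e-05). Grm8 rose from 563 and 565 to 657 and 846 CPM (0.50 ± 0.08, edgeR adjusted p = 0.00014). Grm3 rose from 526 and 528 to 651 and 725 CPM (0.48 ± 0.07, edgeR adjusted p = 7.1e-05). In each of these the lesional values lay above both parenchymal ones. Here and below, such lack of overlap between the regions was not counted over all genes. Grik3 rose from 158 and 145 to 180 and 207 CPM (0.44 ± 0.09, edgeR adjusted p = 0.00099), and Grik2 from 765 and 797 to 895 and 823 CPM (0.24 ± 0.07, edgeR adjusted p = 0.021). Neither overlapped between the regions, but for Grik2 the library labelled Cxcl12-cKO alone gave 0.05 and the library labelled control alone 0.23. Here and below, values from 1 library alone were scaled by total UMIs only, and so are not on the scale of the fit. The median over all genes was then -0.12 in the library labelled Cxcl12-cKO and -0.14 in the other, against -0.04 in the fit. Without the library labelled Cxcl12-cKO the differences of Grik3, Grik4, Grm3 and Grm8 were 0.18, 0.34, 0.31 and 0.22, and without the library labelled control 0.52, 0.67, 0.46 and 0.58. Grik1 fell from 107 and 134 to 82.5 and 72.0 CPM (-0.51 ± 0.11, edgeR adjusted p = 0.0019), by 0.89 in the library labelled Cxcl12-cKO and 0.38 in the other. With female and male nuclei summed separately, Grik2 (edgeR adjusted p = 0.41), Grik3 (edgeR adjusted p = 0.94) and Grm8 (edgeR adjusted p = 0.53) lost their calls, and Grik1, Grik4 and Grm3 kept theirs. Grik5 (0.20, edgeR adjusted p = 0.092), Grm5 (0.05, edgeR adjusted p = 0.62) and Grm7 (0.05, edgeR adjusted p = 0.58) were not called.

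The mix of excitatory subtypes differed between the regions. A mixed subcluster, where at least 25% of nuclei held UMIs of both sexes, made up 11.5% and 8.05% of lesional excitatory nuclei. In the parenchyma it made up 0.23% and 0.19%. With mixed subclusters left out, 6 of 9 receptors were called, 5 higher and 1 lower, beside 5202 of 17678 genes, 2313 higher and 2889 lower. An unnamed subcluster led by Ndst4 and Abi3bp made up 1.98% and 0.85% of lesional and 9.95% and 10.7% of parenchymal nuclei. It held 14.1% and 12.5% of the parenchymal Grik1 UMIs. Layer 6 corticothalamic nuclei, rich in Grik3, Grik4 and Grm8, made up 292 of 2202 and 271 of 2084 parenchymal excitatory nuclei, and 15.5% and 23.3% of the lesional ones. Of the Htr1d/Slc38a3 subcluster no nucleus was lesional. Near-projecting nuclei, 2.82% and 2.26% of the parenchymal nuclei, held 20.5% and 12.4% of their Grik1 UMIs, and among lesional nuclei, where they made up 3.17% and 5.09%, 34.9% and 43.0%. Fibroblast markers in excitatory nuclei summed to 150 and 87.2 CPM in the lesion and 31.0 and 30.3 CPM in the parenchyma, and 5 neuronal genes to 7111 and 7560 CPM against 6236 and 6407 CPM. Their part in the differences was not tested.

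Subtypes were therefore also fitted one at a time where both regions of both libraries held at least 20 nuclei. In the Dnah14/Osr1 subcluster 6 of 9 receptors were called, all higher in the lesion, against 12.2% of genes (5.24% higher and 6.92% lower). Grik4 there rose from 229 and 232 to 345 and 434 CPM (0.83 ± 0.14, edgeR adjusted p = 1.3e-07), Grm3 from 392 and 442 to 619 and 536 CPM (0.58) and Grm8 from 804 and 776 to 1017 and 1108 CPM (0.52). Grik2 (0.48), Grm7 (0.31) and Grm5 (0.30) rose less. Layer 6 corticothalamic nuclei had 4 of 9 called, against 10.7% of genes (4.52% higher and 6.18% lower). In these Grm3 rose from 808 and 837 to 1259 and 1105 CPM (0.65 ± 0.10, edgeR adjusted p = 7.6e-06), Grm8 from 1123 and 1139 to 1403 and 1651 CPM (0.55) and Grik2 from 749 and 764 to 900 and 895 CPM (0.37), whereas Grm5 fell from 963 and 1134 to 808 and 718 CPM (-0.32 ± 0.11, edgeR adjusted p = 0.040). None of these overlapped between the regions.

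Middle-layer nuclei had 2 of 9 called, against 7.83% of genes (2.71% higher and 5.12% lower). Grik1 fell from 240 and 277 to 218 and 121 CPM (-0.50, edgeR adjusted p = 0.017) and Grik2 rose from 557 and 558 to 641 and 772 CPM (0.38, edgeR adjusted p = 0.013). In the other 4 subtypes, where Grik1 levels are low, its difference had the opposite sign to that of the whole class, between 0.19 and 0.82, and was not called (lowest edgeR adjusted p = 0.16). Upper-layer nuclei also had 2 called, against 17.8% (7.06% higher and 10.7% lower). Grik4 rose from 201 and 172 to 243 and 213 CPM (0.38, edgeR adjusted p = 0.037), and Grik3 from 1.90 and 4.11 to 7.57 and 6.23 CPM (1.53, edgeR adjusted p = 0.028), on 15 and 4 lesional UMIs. Lesional fibroblast-like nuclei, the guide to background, held Grik3 at 4.72 and 4.84 CPM, so these levels lie near theirs. An unnamed subcluster led by Il1rapl2 and Ptprm had 1 of 9 called, Grik2 (581 and 548 to 757 and 688 CPM, 0.40, edgeR adjusted p = 0.049), against 6.05% (2.00% higher and 4.05% lower). A single model over these 5 subtypes tested whether the regional difference itself varied with subtype. It called 0 of 9 receptors by edgeR's quasi-likelihood test, where 2.06% of 12637 genes were called. At an unadjusted p under 0.05 there were 7 of 9, but the share of all genes at that cut was not counted. Grik1 and Grm5 had the lowest adjusted p, 0.088. Differences between the subtypes were therefore not established.

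**Figure D4:**
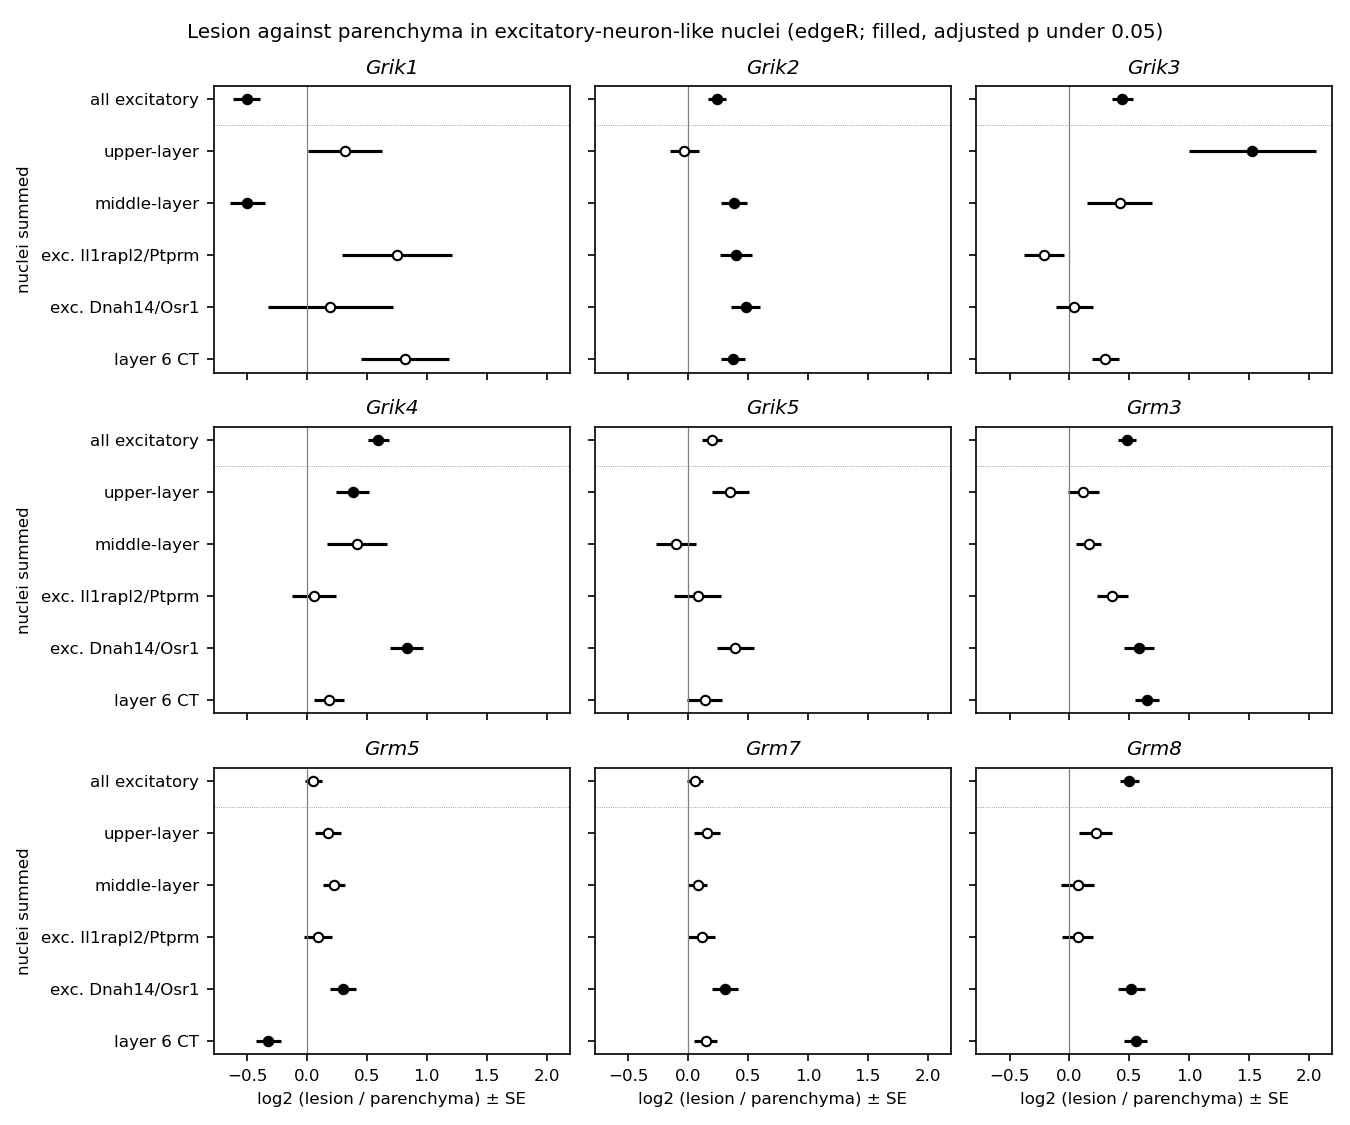
Log2 difference of lesion over parenchyma with its SE for each receptor, in all excitatory-neuron-like nuclei and in 5 subtypes fitted alone by edgeR. Filled points passed an adjusted p of 0.05; in all nuclei together 5 receptors were called higher in the lesion, and Grik1 was called lower at -0.51.

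Of the related genes 11 of 20 were higher in lesional excitatory nuclei and 0 lower, with a median of 0.30. In that fit 13.7% of 17837 genes were higher and 16.3% lower. By the rule for naming, the highest were Homer3 (1.05, edgeR adjusted p = 0.14), Plcb4 (0.72, edgeR adjusted p = 2.3e-06), a phospholipase C downstream of group I receptors, and Grm4 (0.64, edgeR adjusted p = 0.0016), another group III receptor. The lowest, Grm2 (-0.54), Elfn1 (-0.41) and Pick1 (-0.27), were not called.

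In inhibitory-neuron-like nuclei (138 and 137 in the lesion) 0 of 9 receptors were called by edgeR, against 6.30% of 13697 genes (1.71% higher and 4.59% lower), and DESeq2 also called 0. At an unadjusted p under 0.05 there was 1, Grik4 (0.40, edgeR adjusted p = 0.21), beside 3039 of the 13697 genes. The class holds very different cells in its sums: Drd1 striatal-like nuclei were 5.07% and 23.4% of lesional and 10.4% and 11.9% of parenchymal inhibitory nuclei, and Drd2 nuclei 0 and 10.2% against 8.18% and 7.79%. A mixed subcluster made up 16.7% and 8.76% of lesional inhibitory nuclei, and 0.41% of parenchymal ones in the library labelled control. A fit of the Pvalb, Sst, Vip and Lamp5 interneuron-like nuclei alone, added after the levels had been seen, called 3 of 9, against 14.5% of 11902 genes (5.90% higher and 8.65% lower). Grik4 rose from 77.9 and 85.2 to 140 and 150 CPM (0.91 ± 0.16, edgeR adjusted p = 2.9e-07), with no overlap. Grm8 fell from 217 and 309 to 197 and 155 CPM (-0.43 ± 0.14, edgeR adjusted p = 0.022). Grm3 was called lower (-0.49 ± 0.17, edgeR adjusted p = 0.032), at 129 and 105 against 59.8 and 107 CPM, so its values overlapped and the library labelled control carried the difference. Lesional nuclei of each type were few (31 and 23 Pvalb, 25 and 17 Sst, 16 and 8 Vip, 11 and 7 Lamp5). Pvalb nuclei alone gave 0 of 9, against 5.45% (1.69% higher and 3.77% lower). There 5 of 9 receptors and 1591 of 8897 genes had an unadjusted p under 0.05. Fibroblast markers summed to 243 and 113 CPM in lesional and 42.8 and 38.4 CPM in parenchymal inhibitory nuclei, and their part was not tested. Of the related genes 1 of 18 was called in the whole class, Grm4 (1.14, edgeR adjusted p = 0.032). Plcb4 (0.60) and Homer1 (0.46) were the next highest and Pick1 (-0.18) and Elfn1 (-0.09) were among the lowest.

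In the fits run here the largest regional difference of a receptor was that of Grm3 in astrocyte-like nuclei, in a comparison added after the levels had been seen. Parenchymal nuclei held 2549 and 2726 CPM and lesional nuclei 433 and 239 CPM, a log2 difference of -3.16 ± 0.22 (edgeR adjusted p = 2.8e-07), with no overlap. The library labelled control alone gave -2.56 and the library labelled Cxcl12-cKO alone -3.51. Thinned to 1000 UMIs, 23.8% and 16.0% of lesional nuclei held a Grm3 UMI (46.2% and 40.0% before thinning, at a median of 3308 and 3700 UMIs), against 74.1% and 84.2% in the parenchyma (median 4902 and 5048 UMIs); 4 and 3 lesional nuclei were too shallow. The 6 astrocyte markers, all detected, summed to 6156 and 7058 CPM in the lesion and 13090 and 12620 CPM in the parenchyma, so they were lower there too, and their part in the difference was not tested.

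Other receptors rose in the same nuclei. Of 9 receptors 4 were called, against 18.8% of 9589 genes (9.63% higher and 9.20% lower). DESeq2 also called 4, beside 692 of 7172 genes. Grik4 rose from 49.0 and 56.2 to 234 and 200 CPM (1.90 ± 0.29, edgeR adjusted p = 0.00021), on 9 and 13 parenchymal UMIs. Grm5 rose from 131 and 169 to 385 and 465 CPM (1.38 ± 0.22, edgeR adjusted p = 0.00031), and Grik2 from 653 and 385 to 1482 and 1071 CPM (1.20 ± 0.18, edgeR adjusted p = 0.00024). None of the 3 overlapped between the regions. By share of thinned nuclei Grm5 went from 9.21% and 14.7% to 23.5% and 28.0%, and lesional fibroblast-like nuclei gave 6.18% and 6.99%. The 5 neuronal genes summed to 206 and 193 CPM in lesional and 163 and 212 CPM in parenchymal astrocyte-like nuclei, which overlapped, and fibroblast markers to 301 and 196 against 147 and 90.7 CPM. Parenchymal nuclei numbered 37 and 45. Grik3 (2.11, edgeR adjusted p = 0.061), Grm8 (1.71, edgeR adjusted p = 0.075) and Grm7 (0.74, edgeR adjusted p = 0.12) were not called, nor were Grik1 (-0.29) and Grik5 (-0.42).

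Of the related genes 5 of 14 were higher in lesional astrocyte-like nuclei, where 9.63% of 9589 genes were higher and 9.20% lower. The related genes called higher included Neto2 (2.75, edgeR adjusted p = 0.00027), the kainate receptor auxiliary subunit, Prkca (2.67, edgeR adjusted p = 4.6e-07), Itpr1 (1.92) and Shank2 (1.39, edgeR adjusted p = 0.034). Plcb1, a phospholipase C, was the 1 related gene called lower (-2.16, edgeR adjusted p = 1.7e-06). Homer1 (-0.25) and Shank1 (-0.10) were the next lowest and were not called.

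**Figure D5:**
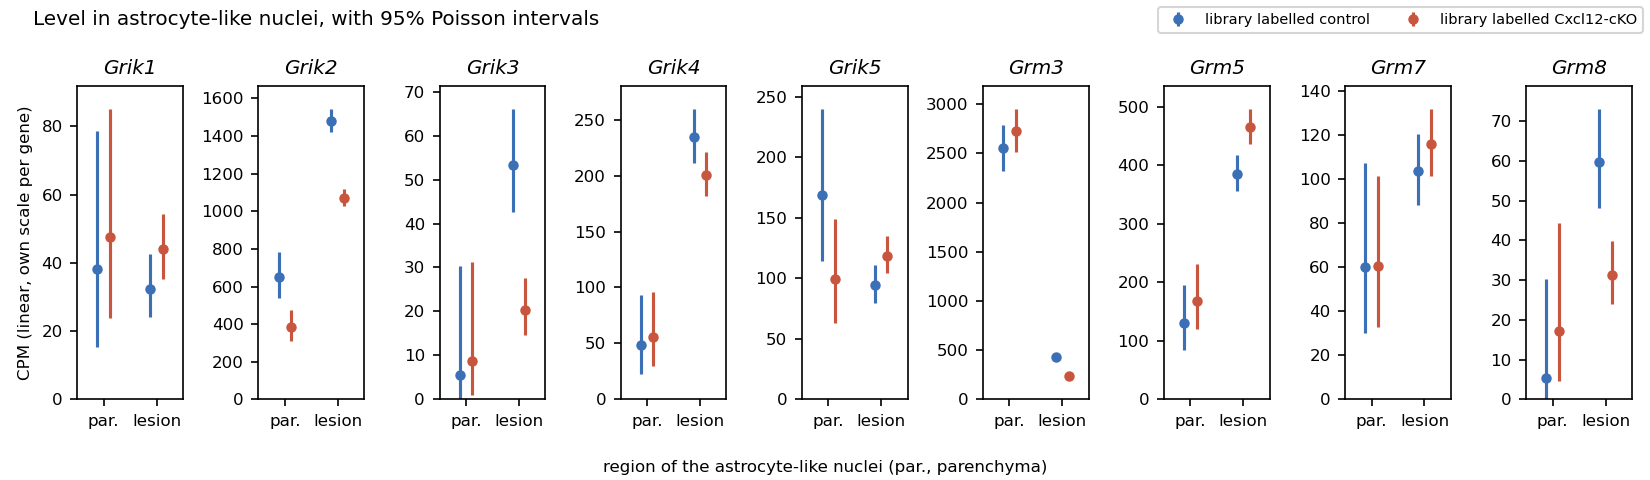
CPM of the 9 receptors in parenchymal and lesional astrocyte-like nuclei of each library, with 95% exact Poisson intervals. Grm3 lies at 2549 and 2726 CPM in the parenchyma and at 433 and 239 CPM in the lesion, while Grik2, Grik4 and Grm5 lie higher in the lesion in both libraries.

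Oligodendrocyte-like nuclei (158 and 163 in the lesion, 25 and 28 in the parenchyma) were compared in the same way, also after the levels had been seen. Of 8 receptors tested 3 were called, against 5.14% of 4417 genes (1.68% higher and 3.46% lower). Grik2 was higher in the lesion, at 3226 and 3227 against 1049 and 1819 CPM (edgeR adjusted p = 4.8e-05), and did not overlap between the regions. Grm3 was lower, at 845 and 750 against 2152 and 905 CPM (edgeR adjusted p = 0.0052), and Grm7 at 848 and 698 against 962 and 1398 CPM (edgeR adjusted p = 0.0498). In the same nuclei astrocyte markers summed to 136 and 230 CPM in the lesion and 2579 and 645 CPM in the parenchyma, and fibroblast markers to 343 and 213 against 120 and 152 CPM, and their part in these differences was not tested. For Grm3 the library labelled Cxcl12-cKO alone gave -0.28 and the library labelled control -1.35, and for Grm7 the library labelled control alone gave -0.19. DESeq2 called 0 of these receptors, with 2 at an unadjusted p under 0.05 (Grik2 and Grm3), beside 172 genes in all. The fits with a finer clustering and without the filter on nuclei also called 0, so none of the calls in this class was kept in every fit. Of 7 related genes tested edgeR called 0, with 2 at an unadjusted p under 0.05 (Plcb4 and Gnaq), beside 669 of the 4417 genes. The highest were Homer1 (1.26), Plcb4 (1.09) and Gnaq (0.62), and the lowest Itpr1 (-0.81), Plcb1 (-0.65) and Prkca (0.37).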

How the data were processed

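The authors deposited UMI counts per gene and nucleus from 10x Genomics nuclei, made with Cell Ranger 9.0.0 on GRCm39, as 1 filtered matrix per library and region. The 2 tag libraries only assigned nuclei to the lesion or the parenchyma. No per-sample column was left unused (0).

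Nuclei in the outer 2.5% of UMIs or genes at either end, or in the top 2.5% of mitochondrial share, were removed (1746 of 23489). Scrublet called 3, 0, 19 and 1 nuclei per matrix, so it did not work and no doublets were removed. Barcodes shared by matrices of different libraries numbered 1 to 22. Clustering used scanpy 1.11.5 (3000 variable genes, 2000 for subclusters, 30 components, resolution 0.25, and 0.5 for neurons), without the glutamate receptor genes. Classes are called by markers. Naming thresholds were chosen with the clusters already in view.

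UMIs were summed per group, library and region, and divided by the total of that sum (CPM), with 95% exact Poisson intervals. Ratios of the libraries add 0.5 to each sum and have an exact interval conditional on the summed count. Regions were compared by edgeR 4.0.16 (R 4.3.3; filterByExpr, TMM, quasi-likelihood test, library block, Benjamini-Hochberg over all genes, threshold 0.05). DESeq2 1.42.0 was an alternative, among 19 planned and 7 added ones. The tests were tried on simulated data.

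All 9 receptors are named. From a list of 21 related genes the 3 highest and 3 lowest per comparison are named, and for each receptor the 2 genes most alike; a few of these are not reported here. Members and lists were chosen with earlier results of these data known.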

Additional observations from a re-analysis of the deposited data

Results flagged for a closer look

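For 2 receptors and Elfn1 the ratio between the libraries had opposite signs in the nuclei of the female and of the male mice, with intervals that exclude 0 on either side. In parenchymal excitatory-neuron-like nuclei the log2 ratio of Grm3 (library labelled Cxcl12-cKO over library labelled control) was -0.051 (-0.09 to -0.02) for nuclei of female origin, and for those of male origin 0.18 (0.13 to 0.24). In parenchymal inhibitory-neuron-like nuclei that of Grm8 was 0.44 (0.32 to 0.56) for female nuclei, whereas male nuclei gave -0.15 (-0.29 to -0.02). Elfn1, a related gene, gave -0.38 (-0.68 to -0.08) and 1.12 (0.79 to 1.46) in the same class. Each library holds 1 mouse of each sex, the intervals cover counting error only, and the difference between the sexes was not tested.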

How the results depend on the processing

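Of the regional differences, 397 values under the alternatives kept direction and, where a p-value existed, side of the threshold. A further 32 lost the call, 11 gained one and 34 reversed. Values from 1 library have no p-value and were counted by direction alone. Of the ratios between libraries, 301 moved by no more than the distance from the middle of their interval to its end, and 58 by more. A reversal was counted only for ratios past 1.5-fold in the main setting, and there was 1. Other ratios that changed sign are among the 301 and 58. Causes were not tested. With 1 library left out no residual degree of freedom remains, so counts of called genes cannot be given there, and female and male sums held too few oligodendrocyte-like nuclei. Between genotypes no paired analysis was possible because each has 1 library. Regions were paired by the library block, and without it excitatory nuclei gave 5773 genes and 6 receptors. Levels from small groups and from glia of the parenchyma rest on few nuclei, and intervals cover counting error only. The same group was highest in 8 of 8 alternatives for Grm3, in 7 for Grik2 and Grm7, 6 for Grik1 and Grik4, 5 for Grik3, 4 for Grm8 and 2 for Grik5 and Grm5.

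Between the libraries, lesional astrocyte-like nuclei had 5 receptors past 1.5-fold in the male mice alone, on 122 and 137 nuclei. The share of all genes past it was not counted there, so this count has no background. The Grik3 ratio was 0.021 with the class of the first clustering.

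In excitatory nuclei the genes called between the regions numbered 2202 with DESeq2, and within subtypes 1347 (Dnah14/Osr1), 578 (Il1rapl2/Ptprm), 1242 (layer 6 corticothalamic), 1001 (middle-layer) and 2390 (upper-layer). Receptors called fell to 3 with female and male sums, where 3924 of 16074 genes were called and Grik2, Grik3 and Grm8 were lost. They fell to 1 in Il1rapl2/Ptprm and to 2 each in middle-layer and upper-layer nuclei. Grik1 reversed to 0.19, 0.75, 0.82 and 0.32 in Dnah14/Osr1, Il1rapl2/Ptprm, layer 6 corticothalamic and upper-layer nuclei. Grik2 was -0.033 in upper-layer, Grik3 -0.21 in Il1rapl2/Ptprm and Grik5 -0.10 in middle-layer nuclei. Grm5 was -0.32 in layer 6 corticothalamic nuclei and -0.0090 without the filter on nuclei. From 1 library each, Grm5 ran from -0.13 to 0.030 and Grm7 from -0.10 to 0.0054, the lower value without the library labelled control. All values from 1 library, in every class, were scaled by total UMIs only. In excitatory nuclei the median over all genes was then -0.12 and -0.14, against -0.04 in the fit. A change of sign there mixes the choice of library with the scaling.

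In inhibitory nuclei the genes called numbered 267 with DESeq2, 1594 without the low-count filter, 445 without the highest Scrublet scores, 1731 in cortical interneurons and 485 in Pvalb nuclei. Receptors called were 1 with female and male sums, where 1069 of 11725 genes were called, and 3 in cortical interneurons. From 1 library each, Grik1 ran from -0.57 to 0.19, Grik5 from -0.086 to 0.39, Grm3 from -1.33 to 0.73, Grm5 from -0.16 to 0.29 and Grm7 from -0.15 to 0.49, with the reversed value in the library labelled control except for Grm3. Without the library block Grm3 was 0.092. In Pvalb nuclei Grik1 was 0.30, Grik3 -0.21, Grm5 -0.15 and Grm8 -0.87; in cortical interneurons Grm8 was -0.43; with female and male sums Grik3 was -0.033 and Grm7 -0.0061.

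In astrocyte-like nuclei DESeq2 called 692 genes, and Grik5 ran from -0.85 to 0.23, the higher value without the library labelled control. In oligodendrocyte-like nuclei the genes called were 22 with DESeq2, 2 without the low-count filter, 13 without the filter on nuclei, 86 without the highest Scrublet scores and 0 at a resolution of 0.5 (341 of 5343 at an unadjusted p under 0.05), and receptors called 0, 0, 0, 1 and 0. From 1 library each, Grik1 ran from -1.43 to 0.035 and Grik4 from -0.50 to 0.23, and Grik5 was 0.13 without the library labelled control. Grik4 was also 0.092, 0.013 and 0.0074 without the low-count filter, without the filter on nuclei and without the highest Scrublet scores. Grm8 was -0.070 without the filter on nuclei and, at a resolution of 0.5, -0.43, where Grm5 was -0.033.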

Other observations

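The following values belong to groups outside the comparisons and are given with no explanation. Lesional oligodendrocyte precursor-like nuclei (76 and 104 in the libraries labelled control and Cxcl12-cKO) held Grik2 at 1625 and 1366 CPM, Grik4 at 343 and 401 CPM, Grik3 at 383 and 485 CPM, Grm7 at 850.0 and 1427 CPM and Grm5 at 241 and 458 CPM. Grm3, high in mature astrocytes, was at 32 and 27 CPM there.

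Among myeloid cells Grm8 was concentrated in a small unnamed lesional subcluster led by Il12b and Ccr7, the chemokine receptor of migrating dendritic cells. Its 44 and 68 nuclei held 20 and 64 Grm8 UMIs, or 220 CPM (135 to 340) and 427 CPM (329 to 545), and 11.4% and 14.7% of the nuclei held at least 1. Macrophage-like nuclei of the lesion had 17 and 24 CPM and microglia-like nuclei 28 and 25 CPM.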
